A study of Mus musculus with 8 samples.

Results

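Thrombospondins and a small set of other secreted proteins restrain the growth of blood vessels, and 7 of their genes were described in ischemic muscle of the mouse. They are the thrombospondins Thbs1, Thbs2 and Thbs3, the thrombospondin receptor Cd47, and the inhibitors Serpinf1, Vash1 and Adamts1. They were taken by name from the gene tables, which list 24848 genes, and all 7 had a row in every library. All 7 also passed the filter on low counts that left 13569 genes for testing.

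The tissue was the tibialis anterior, a muscle of the lower leg, from male Leprdb/db mice after surgery that cut the blood supply of a hind limb (hind limb ischemia). These mice carry a defective leptin receptor and develop obesity and diabetes. Praliciguat, a stimulator of soluble guanylate cyclase, was given in chow at 75 ppm (4 libraries), against control chow without the drug (placebo, 4 libraries). That diet was meant to match the plasma peak of an oral 10 mg/kg/day, began on day -3 and lasted 31 days, and muscle was taken 28 days after surgery. Both groups share the Leprdb/db genotype, the surgery and the male sex, so neither a lean mouse nor an unoperated muscle is part of the comparison. The sources used here give no age for the mice. Nor do the labels state that each library is a separate animal, and the p-values therefore measure only how these libraries spread, which may be technical.

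Thrombospondin 1 is a matrix glycoprotein released by platelets and many stromal cells. It blocks endothelial growth through its receptor CD36, and through CD47 it dampens nitric oxide signalling at soluble guanylate cyclase, the enzyme that praliciguat stimulates. The question put to these genes was therefore whether their transcripts differ between praliciguat and placebo muscle. Thrombospondin 2 is its closest relative, while thrombospondin 3, thrombospondin 4 and COMP form a second subgroup that lacks the type 1 repeats held to carry the antiangiogenic activity. Serpinf1 encodes PEDF, a secreted serpin that inhibits vessel growth. Vash1 encodes vasohibin-1, made mainly by endothelium, which removes the terminal tyrosine of tubulin. Adamts1 encodes a secreted protease with thrombospondin type 1 repeats that cleaves versican and aggrecan and binds VEGF.

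In RefSeq coordinates on GRCm38.p6, the assembly called mm10, Thbs1 lies at chr2:118111876-118127133 on the plus strand and Thbs2 at chr17:14665500-14694262 on the minus strand. Thbs3 lies at chr3:89215180-89226841 on the plus strand, Cd47 at chr16:49851328-49912503 on the plus strand and Serpinf1 at chr11:75410029-75422623 on the minus strand. Vash1 lies at chr12:86678700-86695688 on the plus strand and Adamts1 at chr16:85793827-85803113 on the minus strand. All are protein coding, and the deposited tables count Thbs1 and Thbs3 over 2 transcripts each and the others over 1. In GENCODE, 318 of the 4823 exon bases of Thbs3 also belong to Mtx1 on the opposite strand, which averaged 13.2 CPM, so part of the Thbs3 count is uncertain. Thbs1 shares 208 of 6073 exon bases with Gm29233, an opposite-strand long noncoding RNA that has no row in the tables.

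Proximal promoters are shown for Thbs2 and Thbs3, which among the 7 genes had the widest fold ranges over the libraries. Those of Adamts1, which varied least, and of Vash1, which had the lowest p of the 7 genes, are shown too. Each is the 250 bases before the RefSeq start site, 5′ to 3′ on the gene's strand, at chr17:14694263-14694512 (minus), chr3:89214930-89215179 (plus), chr16:85803114-85803363 (minus) and chr12:86678450-86678699 (plus) of GRCm38.p6. Capitals mark matches, on either strand, to the TATA box letters TATAAA. Matches to the CCAAT box, spelled by its name, and to the letters GGGCGG of a GC box are in capitals too.
Thbs2: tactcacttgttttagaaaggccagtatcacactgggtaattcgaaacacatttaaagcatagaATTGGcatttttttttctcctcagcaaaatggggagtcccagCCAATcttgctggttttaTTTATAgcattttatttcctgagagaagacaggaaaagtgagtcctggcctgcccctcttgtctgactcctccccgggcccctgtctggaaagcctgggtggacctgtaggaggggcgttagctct
Thbs3: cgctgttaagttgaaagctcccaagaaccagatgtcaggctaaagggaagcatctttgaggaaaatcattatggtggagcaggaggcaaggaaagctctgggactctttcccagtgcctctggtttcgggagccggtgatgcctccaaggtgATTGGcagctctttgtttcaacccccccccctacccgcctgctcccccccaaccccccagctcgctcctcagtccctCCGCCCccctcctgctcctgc
Adamts1: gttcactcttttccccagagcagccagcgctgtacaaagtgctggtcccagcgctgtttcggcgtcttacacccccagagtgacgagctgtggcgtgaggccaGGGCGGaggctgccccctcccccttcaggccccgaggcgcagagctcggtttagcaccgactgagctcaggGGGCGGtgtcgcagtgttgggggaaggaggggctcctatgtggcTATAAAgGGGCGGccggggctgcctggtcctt
Vash1: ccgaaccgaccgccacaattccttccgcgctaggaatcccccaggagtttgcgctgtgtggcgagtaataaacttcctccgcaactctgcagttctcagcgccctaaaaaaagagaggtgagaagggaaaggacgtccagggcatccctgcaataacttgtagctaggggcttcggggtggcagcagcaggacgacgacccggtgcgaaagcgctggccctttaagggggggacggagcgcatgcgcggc
The Adamts1 window holds a TATA box whose first base lies at -32, followed without a shared base by a GC box at -25, and 2 more GC boxes at -147 and -76. A CCAAT box lies in the Thbs2 window in reverse at -186 and forward at -144, and in the Thbs3 window in reverse at -98. Thbs3 also has a GC box in reverse at -21. The Thbs2 window also has a TATA box in reverse at -126. The Vash1 window holds none of the 3 motifs. Of 32851 RefSeq promoters of the same length, 12.4% held a TATA box, 33.9% a CCAAT box and 32.7% a GC box. A cAMP response element (TGACGTCA, in 1.55% of promoters) and an AP-1 element (TGANTCA, in 6.75%) were searched too and matched in none of the 6 member windows held by RefSeq's table. These are matches of letters only. GC content was 46.8% for Thbs2, 58.8% for Thbs3, 65.6% for Adamts1 and 60.0% for Vash1, against a median of 52.4% over all promoters.

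Total expected counts were 27271020 to 31896205 in the 4 praliciguat libraries and 21099764 to 29635817 in the 4 placebo libraries. The labelled tissue fitted its markers: 9 skeletal muscle genes summed to 162900 to 227300 CPM with praliciguat and 163200 to 196500 CPM in placebo, where CPM denotes counts on a common, TMM-scaled library size. Praliciguat replicate 3 stood apart. It lay at the end of the first principal component of all tested genes (42.5% of the variance), and it was highest for summed fibroblast, macrophage and adipocyte markers. It was also highest for summed platelet markers, a sum made up mostly of Pf4. In bulk muscle, more cells of a type and more RNA per cell cannot be told apart.

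Serpinf1 was the most abundant of the 7 genes per transcript length. It averaged 129 ± 71.3 TPM over the 8 libraries (SD, n = 8), and its lowest library, at 60.04 TPM, lay above the highest library of every other member. Cd47 at 17.8 ± 4.45 TPM and Adamts1 at 17.4 ± 2.84 TPM came next and were not distinct, Cd47 being the higher in 3 of the 8 libraries. Thbs2 averaged 13.2 ± 10.3 TPM, Thbs1 10.3 ± 5.48 TPM, Vash1 6.81 ± 2.51 TPM and Thbs3 5.30 ± 3.45 TPM (SD, n = 8). Each of these overlapped its neighbour in the order. Adamts1 was above Thbs2 in 7 libraries, Thbs2 above Thbs1 in 5, Thbs1 above Vash1 in 7 and Vash1 above Thbs3 in 6.

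**Figure D1:**
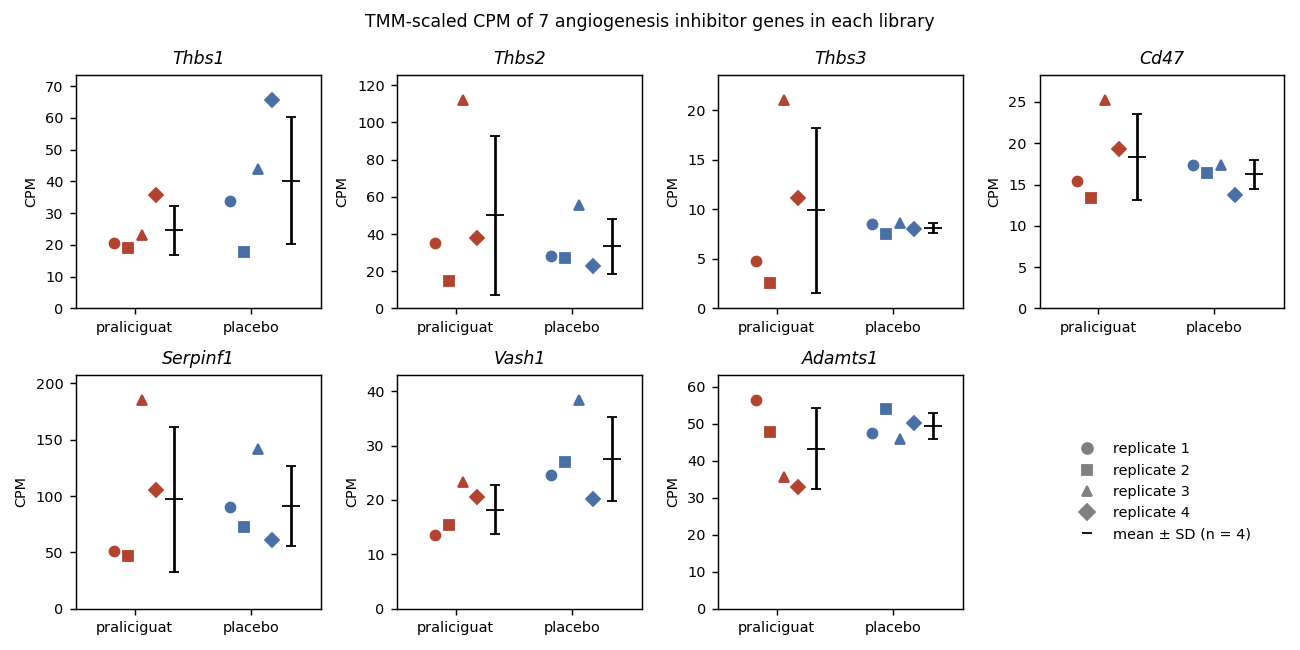
TMM-scaled CPM (y axes, from 0) of each of the 7 genes in the 4 praliciguat (red) and 4 placebo (blue) libraries, with marker shapes for the replicates and the mean ± SD beside each group. The groups overlap for every gene, and praliciguat replicate 3 is the highest library for Thbs2, Thbs3, Cd47 and Serpinf1.

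No member passed the test over all genes. With edgeR's quasi-likelihood test, 0 of the 7 were called at an adjusted p under 0.05, and 0% of all 13569 genes were (smallest adjusted p 0.0777). At an unadjusted p under 0.05 there was 1 member, Vash1, or 14.3% of the 7, against 5.73% of all genes. DESeq2 called 0 of the 7 and 0.841% of its 14738 genes, and had 2 members, Vash1 and Thbs1, at an unadjusted p under 0.05, against 5.18% of all genes. The groups overlapped in all 7, where 3.86% of all genes had groups that did not overlap. Fold changes were below 0 for 3 members and above 0 for 4, with a median of 0.09 on the log2 scale, against 44.8% of all genes below 0 and a median of 0.02.

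Among the thrombospondins, Thbs1 had 20.5, 19.1, 23.1 and 35.7 CPM in praliciguat replicates 1 to 4, against 33.7, 17.8, 43.8 and 65.7 CPM in placebo replicates 1 to 4. The highest praliciguat library lay below the highest pair of placebo libraries, but the lowest library of all was placebo replicate 2, so the groups overlapped. The means were 24.6 ± 7.59 CPM with praliciguat and 40.3 ± 20.1 CPM in placebo (SD, n = 4 each). The log2 fold change was -0.71 ± 0.37 (SE, 95% interval -1.56 to 0.13, edgeR adjusted p = 0.948). It was below 0 with each library left out, from -0.96 without placebo replicate 2 to -0.37 without placebo replicate 4. The title of each sample ends in a number, and these numbers cluster into a lower run (replicates 1 and 2 of both groups) and an upper run (replicates 3 and 4). What the runs stand for is not stated. For Thbs1 the difference was -0.39 ± 0.34 in the lower run and -0.89 ± 0.31 in the upper run (SE).

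Thbs2 had 35.4, 14.8, 112.3 and 37.8 CPM in praliciguat replicates 1 to 4, against 28.4, 27.3, 55.4 and 23.0 CPM in placebo replicates 1 to 4. Praliciguat replicate 3 was the highest of all 8 libraries, at 7.61 times the level of praliciguat replicate 2, the lowest, and the groups overlapped. Group means were 50.1 ± 42.8 CPM with praliciguat and 33.5 ± 14.8 CPM in placebo (SD, n = 4). The log2 fold change of 0.58 ± 0.56 (SE, 95% interval -0.70 to 1.86, edgeR adjusted p = 0.984) turned to -0.19 ± 0.41 when praliciguat replicate 3 was left out. It was -0.16 ± 0.51 in the lower run and 0.94 ± 0.69 in the upper run.

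Thbs3 was nearly constant in placebo and spread widely with praliciguat. It lay between 7.47 and 8.58 CPM in the 4 placebo libraries, while the praliciguat libraries had 4.75, 2.57, 21.1 and 11.2 CPM in replicates 1 to 4. Thus 2 praliciguat libraries were below and 2 above the whole placebo range, and the coefficient of variation was 83.9% with praliciguat and 6.25% in placebo. For all tested genes its median was 16.8% with praliciguat and 13.9% in placebo. The log2 fold change was 0.29 ± 0.54 (SE, 95% interval -0.95 to 1.53, edgeR adjusted p = 0.988), and -0.39 ± 0.42 without praliciguat replicate 3. The low pair of libraries and the high pair fell in different runs of title numbers, where the differences were -1.13 ± 0.28 in the lower run and 0.96 ± 0.32 in the upper run (SE). No test of the difference between runs was made.

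**Figure D2:**
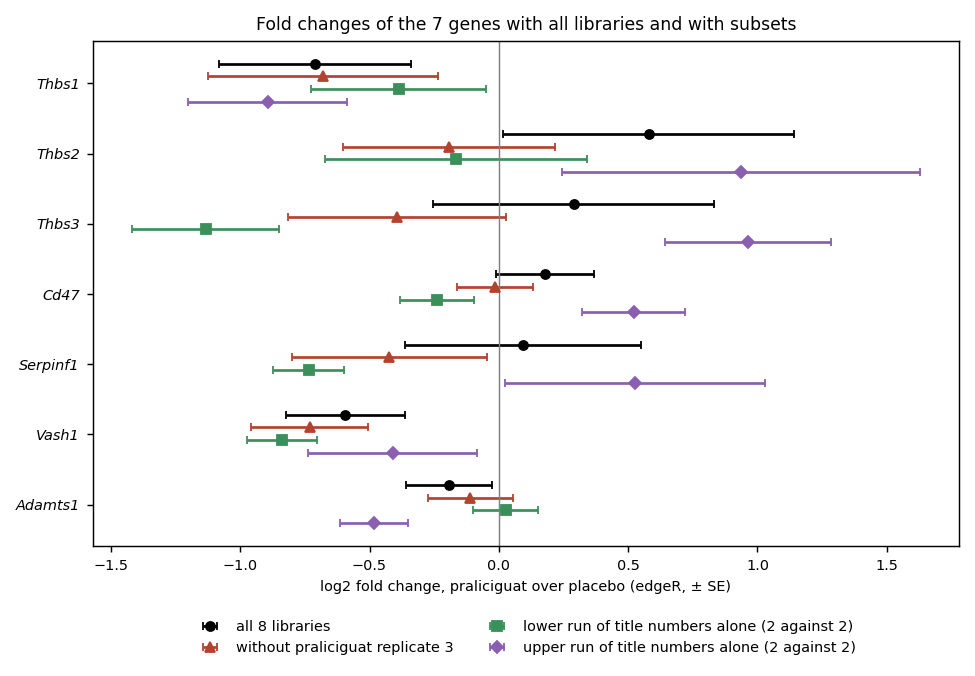
Log2 fold change of praliciguat over placebo (x axis, edgeR, bars ± SE) for each of the 7 genes with all 8 libraries, without praliciguat replicate 3, and within each run of title numbers (2 libraries against 2). Thbs1 and Vash1 are below 0 in all 4 fits, while Thbs2, Thbs3, Cd47 and Serpinf1 are above 0 with all libraries and below 0 without praliciguat replicate 3.

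The remaining members of the thrombospondin family were set beside these 3. Thbs4, abundant in tendon and muscle matrix, had 44.5, 44.9, 219.0 and 82.1 CPM in praliciguat replicates 1 to 4, against 239.5, 157.3, 140.0 and 174.0 CPM in placebo replicates 1 to 4. In 3 of the 4 praliciguat libraries it was below every placebo library. Its log2 fold change was -0.86 ± 0.50 with all libraries (edgeR adjusted p = 0.974) and -1.64 ± 0.28 without praliciguat replicate 3 (edgeR adjusted p = 0.103). In the lower run, 2 libraries against 2, it was -2.16 ± 0.21 and passed (edgeR adjusted p = 0.00879), as did 2.68% of all genes. In the upper run it was -0.06 ± 0.49 (edgeR adjusted p = 0.982), where 0% of all genes passed. The fits within runs were added after seeing the data. Comp, a cartilage and tendon thrombospondin, ranged from 0.933 to 28.7 CPM with praliciguat and from 5.72 to 17.7 CPM in placebo (log2 fold change -0.26 ± 0.86 SE). That value was -1.53 ± 0.77 without praliciguat replicate 3 and 0.12 without praliciguat replicate 2, and it was -2.67 ± 0.95 in the lower run and 0.50 ± 0.64 in the upper run. Both genes also stand in the list of 7 tendon markers, which summed to 55.4 to 456 CPM with praliciguat and 325 to 493 CPM in placebo. The pair made up 42.9 to 82.7% of that sum, so the sum in part restates Thbs4. The other 5 tendon markers summed to 31.6, 9.56, 208.4 and 79.3 CPM in praliciguat replicates 1 to 4, against 235.3, 162.0, 209.6 and 143.6 CPM in placebo replicates 1 to 4, and were thus also lower in 3 praliciguat libraries than in any placebo library. The part of tendon RNA in the Thbs4 values was not tested.

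Summed over the 5 genes, thrombospondin transcripts came to 46.5, 36.8, 216.7 and 84.2 TPM in praliciguat replicates 1 to 4, against 180.3, 110.6, 139.4 and 146.7 TPM in placebo replicates 1 to 4. Thbs4 made up most of the sum in every library, 60.2 ± 5.99% with praliciguat and 73.3 ± 8.14% in placebo (SD, n = 4). The share of Thbs2 was 16.2 ± 4.76% with praliciguat and 7.56 ± 3.78% in placebo, and that of Thbs1 was 11.3 ± 5.28% with praliciguat and 8.91 ± 4.45% in placebo. Among Thbs1, Thbs2 and Thbs3 alone, Thbs1 took 13.3% in praliciguat replicate 3 and 31.9 to 49.7% in the other praliciguat libraries, against 30.4 to 63.7% in placebo. The ratio of Thbs1 to Thbs2 on the TPM scale spanned 0.208 to 1.31 with praliciguat and 0.661 to 2.89 in placebo. A share depends on the whole sum, most of which is Thbs4. Thbs1 had the larger mean share with praliciguat but the lower mean level, 7.62 TPM against 12.9 TPM in placebo. Thbs2 averaged 15.75 TPM with praliciguat and 10.6 TPM in placebo. These shares are given as descriptions, with no test.

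**Figure D3:**
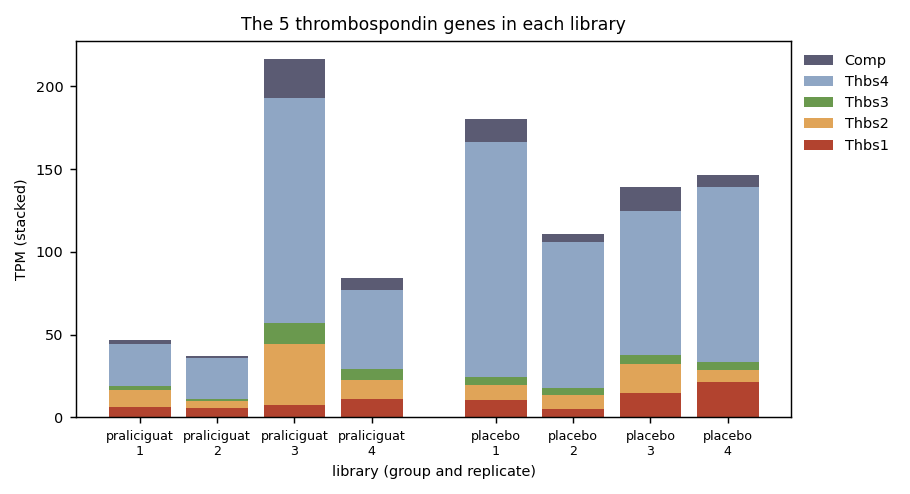
Stacked TPM (y axis, from 0) of Thbs1, Thbs2, Thbs3, Thbs4 and Comp in each of the 4 praliciguat and 4 placebo libraries. Thbs4 is the largest part of each bar, and the praliciguat bars range from 36.8 to 216.7 TPM against 110.6 to 180.3 TPM in placebo.

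Cd47, the receptor that thrombospondin 1 shares with the phagocyte checkpoint, varied by 10.6% (coefficient of variation) in placebo and by 28.6% with praliciguat. It had 15.4, 13.4, 25.3 and 19.3 CPM in praliciguat replicates 1 to 4, against 17.4, 16.3, 17.4 and 13.8 CPM in placebo replicates 1 to 4. Praliciguat replicates 3 and 4 were above every placebo library and praliciguat replicate 2 below every one. The log2 fold change was 0.18 ± 0.19 (SE, 95% interval -0.25 to 0.61, edgeR adjusted p = 0.984) and -0.015 ± 0.15 without praliciguat replicate 3. It was -0.24 ± 0.14 in the lower run and 0.52 ± 0.20 in the upper run. Sirpa, the ligand of CD47 on myeloid cells, had 61.7 CPM in praliciguat replicate 3, against 9.10 to 18.3 CPM in the other praliciguat libraries and 13.1 to 22.3 CPM in placebo. Its log2 fold change was 0.57 ± 0.55 with all libraries and -0.37 ± 0.25 without that library. Summed macrophage markers had the same highest library, at 833 CPM, against 81.3 to 185 CPM in the other praliciguat libraries and 107 to 283 CPM in placebo. Their part in the Cd47 and Sirpa values was not tested. Cd36, a fatty acid carrier of muscle and endothelium and the other receptor of thrombospondin 1, was high. Its group means were close, at 718 ± 105 CPM with praliciguat and 716 ± 116 CPM in placebo (SD, n = 4). The Cd36 log2 fold change was 0.0029 ± 0.15 (SE, 95% interval -0.34 to 0.34) with all libraries. In the lower run it was 0.34 ± 0.13 and in the upper run -0.33 ± 0.16 (SE), so the runs went in opposite directions.

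Of 23 genes of thrombospondin receptors, partners and relatives, Thbs4, Comp, Cd36 and Sirpa included, all 23 were tested and 0 passed over all genes. At an unadjusted p under 0.05, 0 were higher and 3 lower (13.0% of the list in either direction), against 1.95% and 3.78% of all genes. The median was -0.15 on the log2 scale. Itga6, the integrin alpha 6 chain of laminin receptors, was at 45.0 ± 3.81 CPM with praliciguat and 58.1 ± 2.23 CPM in placebo (SD, n = 4). All 4 praliciguat libraries were below all 4 placebo libraries, as in 2.54% of all genes. Its log2 fold change was -0.37 ± 0.09 (SE, edgeR adjusted p = 0.313). DESeq2 called it lower (adjusted p = 0.0205), as it did 0.753% of its genes, and called no other gene of the list. Sparcl1, a matricellular protein related to SPARC, was at 221 ± 29.4 CPM with praliciguat and 299.8 ± 41.0 CPM in placebo (log2 fold change -0.44 ± 0.13 SE, edgeR adjusted p = 0.515).

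Platelets store thrombospondin 1, and platelet markers were low. Of 8, Gp9, Gp1bb, Gp1ba, Gp6 and Treml1 stayed below 1 CPM in every library, and Ppbp and Itga2b reached at most 1.24 and 1.87 CPM. Pf4, a chemokine of platelet granules, was at 6.59 ± 4.15 CPM with praliciguat and 4.77 ± 1.29 CPM in placebo (SD, n = 4). The list summed to 6.61 to 15.6 CPM with praliciguat and 4.97 to 8.44 CPM in placebo. Pf4 reached at most 12.6 CPM and was the largest part of the mean sum in both groups. In placebo replicates 1 to 4 the sums were 7.62, 4.97, 8.44 and 8.31 CPM, and Thbs1 was highest in placebo replicate 4. The part of platelet RNA in the Thbs1 values was not tested.

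A short list linked CD47 to the cyclase: its subunits Gucy1a1 and Gucy1b1, Prkg1, Pde5a, Nos3, Vegfa and Kdr. All 7 had fold changes below 0, as had 44.8% of all genes, from -0.61 to -0.09 on the log2 scale (median -0.27, against 0.02 over all genes). None of the 7 passed the test over all genes in edgeR, and 2 were lower at an unadjusted p under 0.05, against 3.78% of all genes. Those 2, Nos3 (edgeR adjusted p = 0.212, DESeq2 adjusted p = 0.00977) and Vegfa (edgeR adjusted p = 0.399), had lower levels in every praliciguat library than in any placebo library, as had 2.54% of all genes. Nos3 makes nitric oxide in endothelium, and 10 of 10 endothelial markers, Kdr among them, also had fold changes below 0. These markers summed to 422 to 627 CPM with praliciguat and 575 to 747 CPM in placebo, and their part in Nos3 was not tested.

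Serpinf1 had 51.4, 47.2, 185.3 and 105.2 CPM in praliciguat replicates 1 to 4, against 90.5, 72.3, 141.4 and 60.8 CPM in placebo replicates 1 to 4. Praliciguat replicates 1 and 2 were below every placebo library and praliciguat replicate 3 was above every one. Means were 97.3 ± 64.4 CPM with praliciguat and 91.2 ± 35.6 CPM in placebo (SD, n = 4), with a log2 fold change of 0.09 ± 0.46 (SE, 95% interval -0.95 to 1.13, edgeR adjusted p = 0.996). Without praliciguat replicate 3 it was -0.42 ± 0.38. Within the lower run of title numbers it was -0.74 ± 0.14 (edgeR adjusted p = 0.0267), where 2.68% of all genes passed, and within the upper run 0.53 ± 0.50 (edgeR adjusted p = 0.798). Fibroblast markers summed to 8084 CPM in praliciguat replicate 3, against 1431 to 3085 CPM in the other praliciguat libraries and 2391 to 3992 CPM in placebo, and were highest in placebo replicate 3 within its group, as Serpinf1 was. Their part in the Serpinf1 values was not tested. Pnpla2, a lipase reported to bind PEDF, was at 497 CPM with praliciguat and 437 CPM in placebo (log2 fold change 0.19 ± 0.14 SE), a gene named here after its values were seen.

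Vash1 had the lowest p of the 7 genes. It had 13.6, 15.4, 23.3 and 20.6 CPM in praliciguat replicates 1 to 4, against 24.6, 27.0, 38.4 and 20.1 CPM in placebo replicates 1 to 4. All 4 praliciguat libraries were below 3 of the placebo libraries, and placebo replicate 4 was within the praliciguat range. The means were 18.2 ± 4.49 CPM with praliciguat and 27.5 ± 7.78 CPM in placebo (SD, n = 4), a 0.663-fold level (log2 fold change -0.59 ± 0.23 SE, 95% interval -1.11 to -0.07). The unadjusted p was 0.0294 and the adjusted p 0.749 in edgeR, rank 533 of the 13569 genes. It was below 0 with each library left out, from -0.73 without praliciguat replicate 3 to -0.39 without placebo replicate 3. Within the lower run of title numbers it was -0.84 ± 0.13 (edgeR adjusted p = 0.0157), where 2.68% of all genes passed, and within the upper run -0.41 ± 0.33 (edgeR adjusted p = 0.760). Vash2, the other vasohibin, was at 3.37 CPM with praliciguat and 1.61 CPM in placebo (log2 fold change 1.07 ± 0.53 SE). Without praliciguat replicate 3 that value was 0.44 ± 0.41. In the lower run it was 0.07 ± 0.40 and in the upper run 1.57 ± 0.54. Svbp, the small partner that both vasohibins need for activity, was at 8.08 CPM with praliciguat and 9.05 CPM in placebo (-0.16 ± 0.12 SE). Both were named after their values were seen. Summed endothelial markers averaged 529.7 CPM with praliciguat and 659 CPM in placebo, with groups that overlapped, and their part in the Vash1 values was not tested.

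Adamts1 varied least of the 7 genes, with a coefficient of variation of 17.8% over all 8 libraries. It had 56.5, 47.8, 35.7 and 32.9 CPM in praliciguat replicates 1 to 4, against 47.5, 54.0, 45.9 and 50.1 CPM in placebo replicates 1 to 4. Praliciguat replicates 3 and 4 were below every placebo library and praliciguat replicate 1 above every one. The means were 43.2 ± 10.95 CPM with praliciguat and 49.4 ± 3.55 CPM in placebo (SD, n = 4), and the log2 fold change was -0.19 ± 0.17 (SE, 95% interval -0.57 to 0.18, edgeR adjusted p = 0.984). In the lower run it was 0.027 ± 0.13 and in the upper run -0.48 ± 0.13 (SE).

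Fold changes larger in size than that of Adamts1 were measured in several of its relatives, in both directions. Among these, Adamts8 and Adamts9 had the lowest p. Adamts8, a protease of the same family that also inhibits vessel growth in assays, had 6.47, 6.96, 1.98 and 10.7 CPM in praliciguat replicates 1 to 4, against 81.1, 34.3, 23.0 and 58.7 CPM in placebo replicates 1 to 4. All praliciguat libraries were below all placebo libraries, as in 2.54% of all genes. Adamts8 was at 0.132 of the placebo level by the fit (log2 fold change -2.92 ± 0.54 SE, 95% interval -4.16 to -1.68). It missed the threshold in edgeR (adjusted p = 0.202), while DESeq2 called it lower (adjusted p = 0.000482), as it did 0.753% of its genes. With 1 library left out the fold change was -3.27 to -2.56, and within the lower and upper runs of title numbers -3.11 ± 0.61 and -2.69 ± 0.95. Adamts9, a versican-cleaving protease, had 17.4, 14.2, 17.0 and 12.5 CPM in praliciguat replicates 1 to 4, against 22.3, 26.4, 28.8 and 42.3 CPM in placebo replicates 1 to 4. Its groups did not overlap either (log2 fold change -0.97 ± 0.20 SE, edgeR adjusted p = 0.251, DESeq2 adjusted p = 0.00346).

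**Figure D4:**
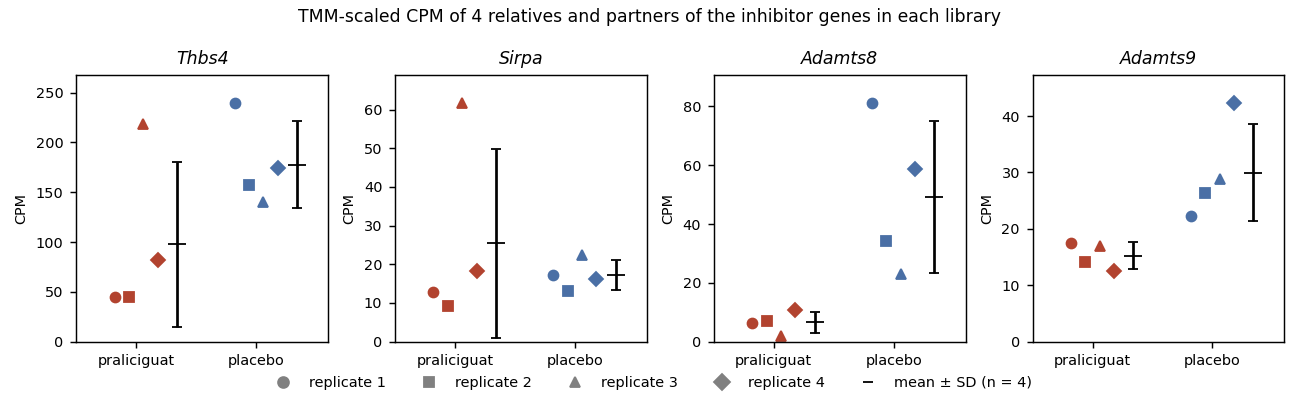
TMM-scaled CPM (y axes, from 0) of Thbs4, Sirpa, Adamts8 and Adamts9 in the 4 praliciguat (red) and 4 placebo (blue) libraries, with the mean ± SD of each group. The groups do not overlap for Adamts8 and Adamts9, and praliciguat replicate 3 is far above the other praliciguat libraries for Thbs4 and Sirpa.

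Of 20 further ADAMTS proteases and substrates, among them Adamts9, 14 were tested. None passed over all genes in edgeR, 3 were lower and 0 higher at an unadjusted p under 0.05, against 3.78% and 1.95% of all genes. The median was -0.13 on the log2 scale, against 0.02 over all genes, with 8 of 14 below 0, against 44.8%. Adamts3, a procollagen protease, was low, at 1.24 ± 0.34 CPM with praliciguat and 2.32 ± 0.949 CPM in placebo (SD, n = 4), a log2 difference of -0.90 ± 0.35 (SE) at an edgeR adjusted p of 0.746.

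Of 45 symbols listed as other angiogenesis inhibitors and their partners, Adamts8 included, 44 had a row (Bai1 is an older name of Adgrb1), 37 were tested and 0 passed over all genes in edgeR. At an unadjusted p under 0.05, 6 were lower and 0 higher (16.2% of those tested in either direction), against 3.78% and 1.95% of all genes. Fold changes were below 0 in 25 of the 37 (67.6%, against 44.8% of all genes), with a median of -0.16. Endothelial markers had a median of -0.32, with 10 of 10 below 0, and the list itself holds genes of endothelium such as Dll4, Ptprb, Flt1 and Angpt2 (named after their values were seen). The part of endothelial RNA in the list's values was not tested. In 5 of the 37 all praliciguat libraries were below all placebo libraries, against 2.54% of all genes. DESeq2 called 2 of them lower, Adamts8 and Sema3f, as it did 0.753% of its genes. Sema3f, a semaphorin that repels endothelial cells, was at 9.13 ± 1.53 CPM with praliciguat and 13.96 ± 1.55 CPM in placebo (SD, n = 4), a log2 difference of -0.61 ± 0.15 (SE), with an adjusted p of 0.317 in edgeR and 0.0361 in DESeq2.

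Across the 8 libraries, positive correlations past the adjustment were measured among Thbs2, Thbs3, Cd47 and Serpinf1, for 5 of their 6 pairs. The exception was Thbs2 with Thbs3. On log2 CPM, with exact two-sided permutation tests over all pairings, 5 of 21 pairs of members passed by Pearson's r and 3 by Spearman's rho after Benjamini-Hochberg adjustment over the 21. Cd47 and Serpinf1 had r = 0.893 and rho = 0.905 (exact permutation p = 0.00198 and 0.00456, adjusted 0.0172 and 0.0319). Thbs3 and Serpinf1 had r = 0.870 and rho = 0.952 (exact permutation p = 0.00263 and 0.00114, adjusted 0.0172 and 0.0240), and Thbs3 and Cd47 had r = 0.871 and rho = 0.905 (exact permutation p = 0.00784 and 0.00456, adjusted 0.0329 and 0.0319). Thbs2 passed by r alone with Cd47 (r = 0.903, exact permutation p = 0.00327, adjusted 0.0172; rho = 0.833, adjusted 0.0538) and with Serpinf1 (r = 0.882, exact permutation p = 0.00218, adjusted 0.0172; rho = 0.857, adjusted 0.0538).

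These values of r were lower without the extreme libraries. Leaving out praliciguat replicates 2 and 3, the farthest from the median, r was 0.736 for Cd47 and Serpinf1, 0.728 for Thbs3 and Serpinf1, 0.583 for Thbs3 and Cd47, 0.566 for Thbs2 and Cd47 and 0.694 for Thbs2 and Serpinf1. For Thbs2 and Thbs3 it was 0.118, against 0.831 with all 8 libraries (rho = 0.810, exact permutation p = 0.0173 and 0.0218, adjusted 0.0607 and 0.0653). Without praliciguat replicate 3 alone, r for Thbs2 and Thbs3 was 0.667. Leaving out the lowest and the highest library narrows the range, which by itself lowers r, so these values cannot show what a relation rests on. With each group's mean subtracted the 6 pairs of these 4 genes ranged from 0.864 to 0.938. Vash1 then had r = 0.897 with Serpinf1, 0.761 with Cd47, 0.739 with Thbs2 and 0.619 with Thbs3, against 0.697, 0.372, 0.420 and 0.516 before that step, none of which passed. With each run's mean subtracted instead, the 6 pairs had r from 0.738 to 0.884. When libraries were permuted within runs (576 pairings, a test added after seeing the data), 1 of the 21 pairs passed, Thbs3 with Cd47 (r = 0.858, exact permutation p = 0.00174, adjusted 0.0365). For the other 5 pairs of these genes the adjusted p was 0.176.

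Adamts1 had negative r with these 4 genes, -0.538 to -0.726, none past the adjustment, the closest being Thbs3 by rho (rho = -0.833, exact permutation p = 0.0154, adjusted 0.0538). Thbs1 was apart: its r with the other 6 genes lay between -0.165 and 0.349. Fibroblast and macrophage marker sums were highest in the same library, praliciguat replicate 3, and lowest in the same library, praliciguat replicate 2, as Thbs2 and Thbs3. The part of these cells in the correlations was not tested.

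**Figure D5:**
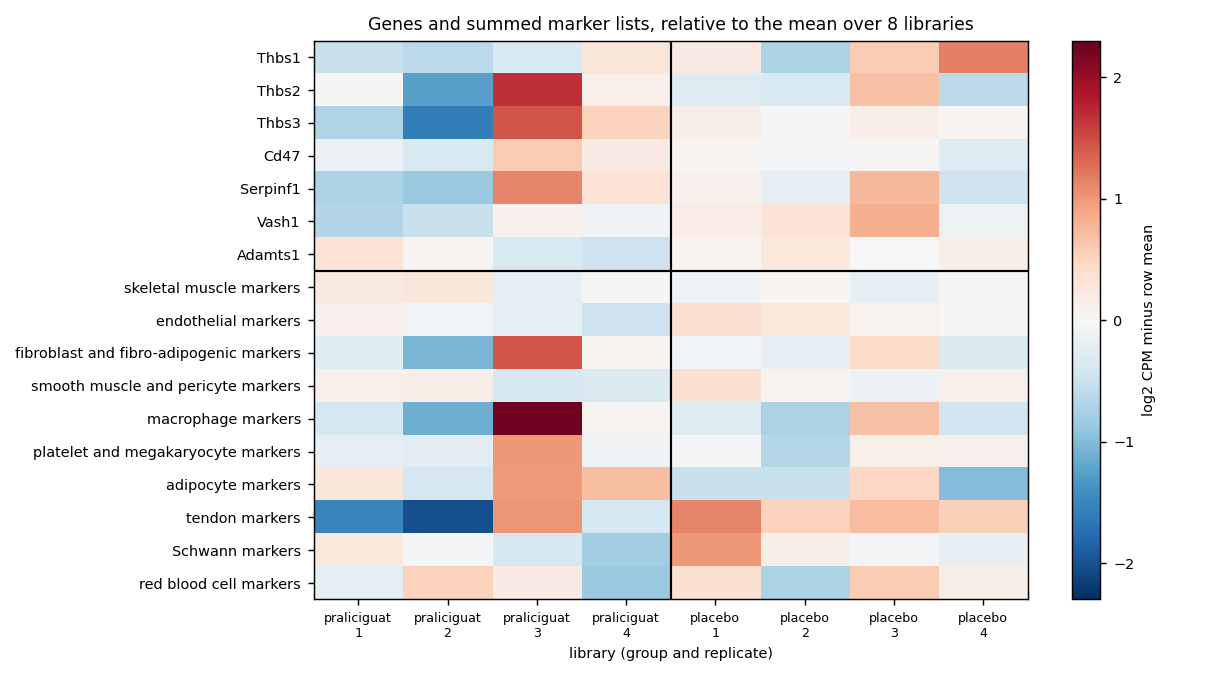
Log2 CPM minus the row's mean over the 8 libraries (colour) for the 7 genes, above the line, and for summed marker lists, below it, with praliciguat libraries left of the vertical line and placebo libraries right. Thbs2, Thbs3 and Serpinf1 share their highest library, praliciguat replicate 3, with fibroblast and macrophage markers, and Thbs1 is highest in placebo replicate 4.

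The genes whose log2 CPM was most like each member over the 8 libraries, by Pearson's r, differed between members. Thbs1 was nearest to Xpo1 (r = 0.978), Slc30a1 (0.957) and Ehd1 (0.944). Thbs2 was nearest to Slfn8 (r = 0.984), Was (0.982) and Fyb (0.980), and Thbs3 to Fstl1 (r = 0.992), Itga11 (0.985) and Clec3b (0.983). Cd47 was nearest to Psen2 (r = 0.988), Cers2 (0.983) and Podn (0.982), and Serpinf1 to Arpc1b (r = 0.990), Anxa5 (0.988) and Nagk (0.987). Vash1 was nearest to Ccnd1 (r = 0.970), Icosl (0.969) and Rflnb (0.967), and Adamts1 to Acss1 (r = 0.992), Tph1 (0.984) and She (0.976). These are the top 3 of all other tested genes each, chosen for that likeness, and libraries of unequal cell content share it. Without praliciguat replicate 3 the r of these genes was 0.944 to 0.996, which is no independent check, since the other libraries also served in the choice.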

How the data were processed

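RNA sequencing was read from 8 gene tables, 1 per library. Per the labels' protocols, RNA came from snap-frozen muscle and libraries were made with a stranded mRNA kit. No source used here states the strand setting of the counting. Per the submitters' processing notes, the tools were RSEM 1.2.28, STAR 2.5.3a, Trimmomatic and FastQC, and the build was mm10.

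Per the file headers, the deposited expected count column holds RSEM's estimated counts, where a model shares out reads that match several transcripts. Counts were whole, within a tolerance of 0.001, for all but 0.765% to 0.930% of genes per library. Levels of different genes were compared on the deposited TPM column, which corrects for transcript length. An alternative fit used the effective length that the authors deposited as an offset.

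Expected counts were rounded and tested over all genes with edgeR 4.0.16 under R 4.3.3 (filterByExpr, TMM, quasi-likelihood F test with robust dispersion, Benjamini-Hochberg, threshold 0.05, group as the only term). DESeq2 1.42.0 and limma 3.58.1 gave alternatives. A fold change is praliciguat over placebo. log2 CPM used a prior count of 2. The fit was tested on simulated data. Groups came from the labels, and the replicate numbers follow the accessions and pair no libraries. Chi-square per degree of freedom between libraries of a group was 21.9 to 136, so no 2 libraries agreed within sampling noise. The limit that a count of 0 allows, 3 counts, was 0.0941 to 0.142 CPM depending on the library. It covers counting error only.

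The members were proposed, and the lists and rules chosen, with earlier results of these data known. Named beside the 7 members were Thbs4, Comp, Cd36 and Sirpa, the 2 genes of lowest p in each list, and the 3 genes most like each member, passing over Gm, LOC and Rik symbols and small RNAs. Leaving out praliciguat replicates 3 and 4 together and the fits within each run of title numbers were added after seeing the data. Promoter sequences are RefSeq's on GRCm38.p6; 6 of the 7 members matched, and windows with annotated UTR bases were not printed.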

Additional observations from a re-analysis of the deposited data

Results flagged for a closer look

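Thbs2 in placebo replicate 3, at 55.4 CPM, lay far above the other 3 placebo libraries, which had 23.0 to 28.4 CPM. The gap to the nearest of them was 0.834 of the group's range, above the 95% critical value of Dixon's test for 4 samples. Of 14 groups examined (7 genes in 2 groups), this was the only one, and about 1 in 20 is flagged by chance. Fibroblast and macrophage markers were also highest in that library within the placebo group, and their part was not tested.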

How the results depend on the processing

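Over 22 alternatives each, Thbs1 and Vash1 kept a fold change below 0, from -1.03 to -0.37 and from -0.92 to -0.39. The count of genes called over all genes, 0 in edgeR, was 124 with DESeq2, 2 with limma-voom, 3 with title-number run as a block, 11 at an adjusted p under 0.1, 0 to 5 with 1 library left out (5 without placebo replicate 3), 364 in the lower run alone, 0 in the upper run alone and 85 without praliciguat replicates 3 and 4 together. In the lower run alone, Vash1 (log2 fold change -0.84) and Serpinf1 passed.

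Log2 fold changes turned below 0 with 1 library left out for Thbs2 (range -0.19 to 0.93), Thbs3 (-0.39 to 0.61), Cd47 (-0.015 to 0.30) and Serpinf1 (-0.42 to 0.38). Thbs3 and Serpinf1 were -0.046 and -0.075 with limma-voom, -0.074 and -0.10 with limma on log2(TPM + 1), -0.17 and -0.10 on log2(TPM + 0.1), and -0.037 and -0.097 with the run as a block. In the lower run alone Thbs2 was -0.16, Thbs3 -1.13, Cd47 -0.24, Serpinf1 -0.74 and Adamts1 0.027. Without praliciguat replicates 3 and 4 together they were -0.42, -1.15, -0.17, -0.89 and 0.076. The cause was not tested. DESeq2 size factors and upper quartile scaling changed no direction among the 7 genes. No paired analysis was possible because the labels carry no replicate numbers that pair libraries across groups. With 4 libraries a group, intervals for Thbs2, Thbs3 and Serpinf1 span more than 2 on the log2 scale.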
